A study of Mus musculus with 2 samples.

Results

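Retinoic acid is made inside cells from vitamin A in a pair of oxidation steps. Retinol is first oxidised to retinaldehyde, for which RDH10 is the main embryonic enzyme, and retinaldehyde is then oxidised irreversibly to retinoic acid by the ALDH1A enzymes. CRABP proteins carry the acid in the cytoplasm, and the retinoic acid receptors RARα, RARβ and RARγ bind it in the nucleus, where they act on DNA paired with an RXR. In muscle and in fat, retinoic acid is known to affect the differentiation of progenitors, and mouse Aldh1a1 is known to be expressed in adipose tissue.

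The 9 genes described here are Rdh10, the retinaldehyde dehydrogenase genes Aldh1a1, Aldh1a2 and Aldh1a3, the binding protein genes Crabp1 and Crabp2, and the receptor genes Rara, Rarb and Rarg. They were chosen by name, as a family, with their FPKM values in these libraries already known, and all 9 were found among 23235 genes in the deposited table. FPKM is the number of sequenced fragments per kilobase of transcript, scaled to the size of the library, so levels of different genes may be set side by side within a library. The values that chose the genes and the values given below come from the same contrast, so the differences are descriptions.

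The study looked for target genes of Pax7, the paired-box factor of muscle stem cells (satellite cells). Cultured muscle progenitors of Pax7 KO neonates gave 1 polyA RNA-seq library, and those of WT neonates gave 1 more. For the Pax7 KO, the labels name mice with a tamoxifen-inducible Cre at the Pax7 locus (Pax7CreER/+) and a floxed Pax7 allele (Pax7flox/flox), given 75 µg of tamoxifen per g of body weight from day 5 on 5 consecutive days. The Cre is driven by Pax7, so the deletion is directed to Pax7-expressing cells. Which cells of the cultures carried the deletion, the values used here do not show. Whether the WT animals carried any of these alleles or received tamoxifen, and how many animals gave each culture, the sources used here do not say. Both cultures were grown from pronase-digested hind limb and back muscle, enriched by sedimentation, in a medium with 20% fetal bovine serum, 10% horse serum and 2.5 ng/ml bFGF. With 1 library per genotype there is no spread between replicates, no test was run, and every difference below is one between 2 libraries.

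Pax7 itself stood at 0.769 FPKM in the Pax7 KO library and at 3.21 FPKM in the WT library, 4.17-fold lower in KO. From the step between low FPKM values, the depth was estimated at about 21400000 fragments in KO and 25600000 in WT, if no further scaling had been applied by the authors. The log2 ratio used below is log2((KO FPKM + 1) / (WT FPKM + 1)); a gene that is low in both libraries therefore shows a smaller ratio than its FPKM do. The median gene of mean FPKM 1 or more had a log2 ratio of 0.42, and "relative to the median gene" means after subtracting this value. Intervals given for single genes are exact 95% Clopper-Pearson intervals, made from estimated fragments for the log2 of KO FPKM over WT FPKM with no pseudocount. Only counting error is covered by them; how cultures or animals vary is unknown.

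Aldh1a1 and Aldh1a2 were higher in the Pax7 KO library, by 22.9-fold and 4.90-fold in FPKM, while Crabp1, Rara and Aldh1a3 lay within 1.26-fold of their WT level. The other members, Crabp2, Rarg, Rarb and Rdh10, were higher in KO by 2.57-fold, 1.93-fold, 1.91-fold and 1.54-fold, set against a median gene that was 1.42-fold higher. As deposited, 2 of the 9 members had a log2 ratio of at least 1, which is 2-fold, and none had one of -1 or below. Among 11751 genes of mean FPKM 1 or more, 5.06% were higher and 0.689% lower by 2-fold or more. The median log2 ratio of the 9 members was 0.51, Aldh1a3 with its mean FPKM below 1 included, against 0.42 over these 11751 genes. Relative to the median gene, Aldh1a1 was the 1 member at least 2-fold higher and none was lower, where 1.35% of all genes were higher and 1.45% lower by as much.

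**Figure D1:**
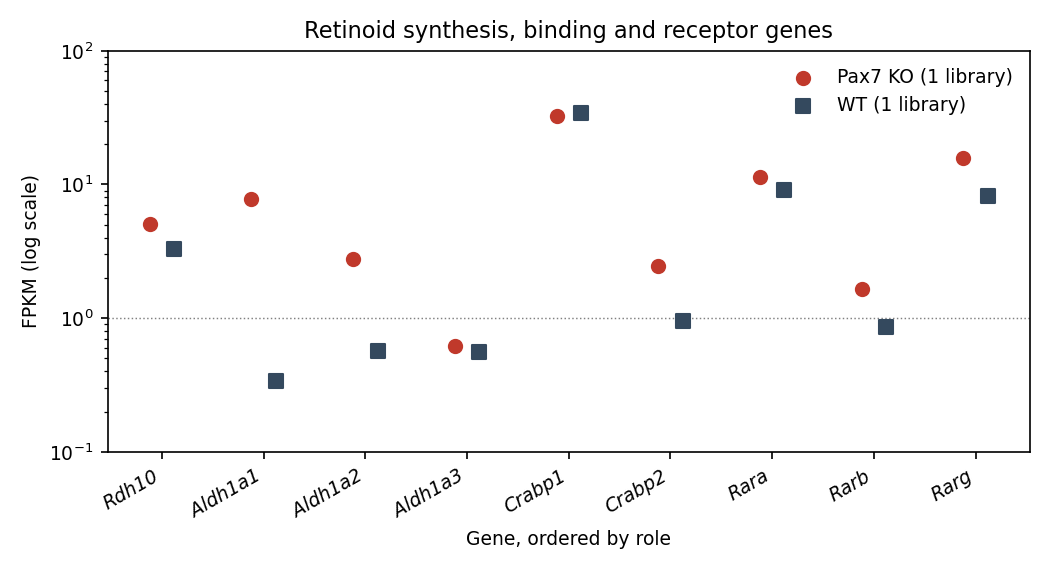
FPKM (log axis) of the 9 members in the Pax7 KO library (circles) and the WT library (squares), 1 library each, with a dotted line at 1 FPKM. Aldh1a1 stands at 7.79 FPKM in KO and 0.340 FPKM in WT, while Crabp1 is the highest member in both libraries, at 32.6 and 34.1 FPKM.

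Of the 9 members, 8 had a mean FPKM of 1 or more, called the limit below. Aldh1a3 did not. Aldh1a1, Aldh1a2, Crabp2 and Rarb were below 1 FPKM in WT and passed through their KO value, so a count over the members that passed is no support for a difference. Rdh10, Crabp1, Rara and Rarg were above 1 FPKM in both libraries. In KO the order of the levels was Crabp1, Rarg, Rara, Aldh1a1, Rdh10, Aldh1a2, Crabp2, Rarb and Aldh1a3. In WT it was Crabp1, Rara, Rarg, Rdh10, Crabp2, Rarb, Aldh1a2, Aldh1a3 and Aldh1a1. Aldh1a1 thus stood in place 4 of 9 in KO and in place 9 in WT, and without replicates it cannot be said which neighbours in either order differ beyond their spread. No member shares its locus with another row of the table.

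**Figure D2:**
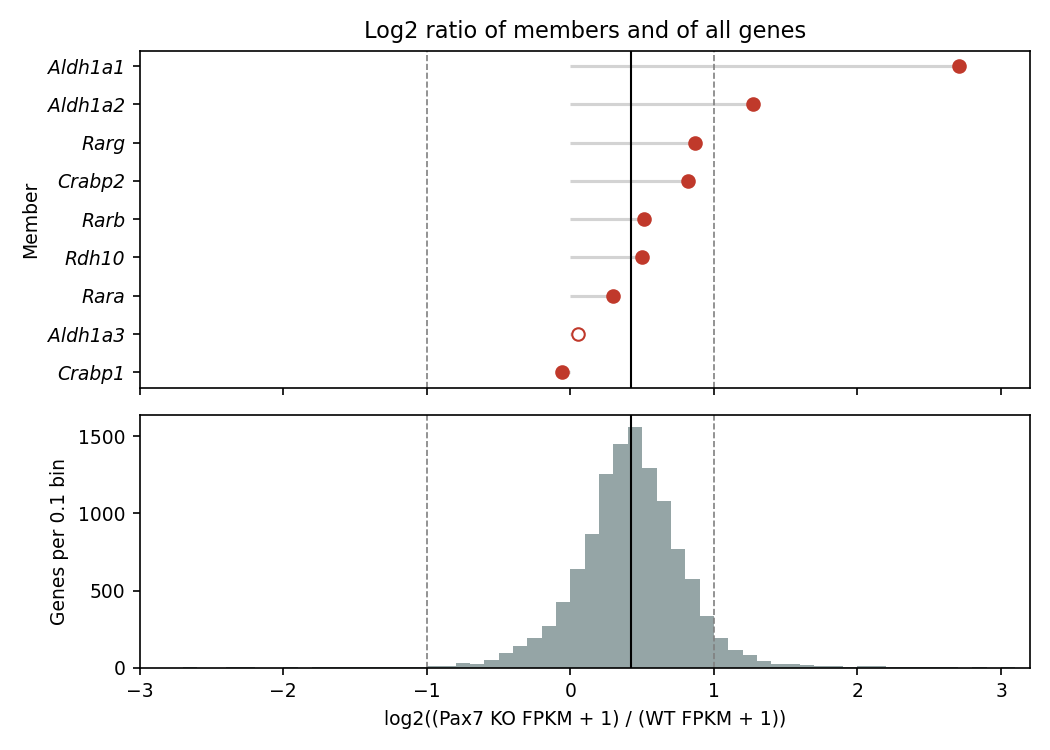
Upper panel, log2 ratio of Pax7 KO over WT for each member; the open circle is Aldh1a3, whose mean FPKM was below 1. Lower panel, the same ratio for all genes of mean FPKM 1 or more, with 34 genes outside the axis; the solid line is the median gene at 0.42 and the dashed lines mark 2-fold. Aldh1a1 and Aldh1a2 lie beyond the upper dashed line, while Crabp1, Aldh1a3 and Rara lie left of the median gene.

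Rdh10 (chromosome 1, 16095963 to 16122631, mm9), whose enzyme oxidises retinol, was at 5.05 FPKM in KO and 3.27 FPKM in WT. This is a log2 ratio of 0.50, and of 0.08 relative to the median gene. About 388 fragments in KO and 301 in WT lay behind these values, and the interval of 0.40 to 0.85 includes the 0.50 of the median gene without a pseudocount. Rdh10 therefore lay close to the median gene of the table.

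Aldh1a1 (chromosome 19, 20676472 to 20717952, mm9), which encodes a cytosolic retinaldehyde dehydrogenase, was at 7.79 FPKM in KO and 0.340 FPKM in WT. These values correspond to about 343 fragments in KO and 18 in WT. As log2 ratios these give 2.71, and 2.29 relative to the median gene; without a pseudocount the value was 4.52, with an interval of 3.83 to 5.28. By the log2 ratio it stood in place 31 of 11751 genes. Aldh1a2 (chromosome 9, 71063596 to 71144050), the main source of retinoic acid in the early mouse embryo, was at 2.77 FPKM in KO and 0.564 FPKM in WT. The log2 ratio of Aldh1a2 was 1.27, and after subtracting the median gene 0.85, short of 2-fold. Without a pseudocount it was 3.46-fold higher relative to the median gene, so the call is lost with the pseudocount and the centring together. It rested on about 134 fragments in KO and 33 in WT, and the interval without a pseudocount was 1.72 to 2.88. The authors' deposited table calls both genes higher, as it does 3.07% of all genes, and calls no member lower, as it does 1.64% of all genes. These calls rest on the same 2 libraries.

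Aldh1a3 (chromosome 7, 73535779 to 73572363), the third enzyme of the group, was at 0.620 FPKM in KO and 0.563 FPKM in WT. About 46 and 50 fragments lay behind these values, and the interval of -0.47 to 0.75 holds both no difference and the median gene. A difference of Aldh1a3 was not detectable at this depth. Added up, the Aldh1a genes were at 11.2 FPKM in KO and 1.47 FPKM in WT, 7.62-fold higher. Aldh1a1 made up 69.7% of this sum in KO and 23.2% in WT. Aldh1a2 made up 24.7% in KO and 38.4% in WT, and Aldh1a3 5.55% in KO and 38.4% in WT. Within the libraries, the level of Aldh1a1 was 2.82 times that of Aldh1a2 in KO and 0.603 times in WT, a comparison that the scaling of the libraries does not touch.

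A close copy of Aldh1a1, Aldh1a7, lies 49490 bases away on the same chromosome. It was at 1.02 FPKM in KO and 0.185 FPKM in WT, on about 45 and 10 fragments, and is called higher in the authors' deposited table, with a fold of 5.50. The coding sequences of Aldh1a1 and Aldh1a7 were identical at 91.6% of 1503 aligned bases. Of the windows of 50 bases in the Aldh1a1 transcript, 7.53% occur unchanged in Aldh1a7, as do 11.5% of the windows of 36 bases and 2.53% of those of 75 bases. The read length and the handling of reads that map to several places are not stated in the sources used here, so fragments may have been split between the pair. Summed, they were at 8.81 FPKM in KO and 0.525 FPKM in WT, with a log2 ratio of 2.68. The other pairs within the families shared no window of 36 bases; their coding identity ran from 68.2% (Aldh1a1 with Aldh1a3) to 77.9% (Rara with Rarg).

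The promoters of the higher Aldh1a genes are printed for what they share: the octamer ATGCAAAT, which stands in capitals. Each is the 120 bases before a RefSeq transcript start on GRCm38.p6, 5′ to 3′ on the gene's strand. Of the 9 members, 6 had a promoter window in the RefSeq table. Rdh10, Aldh1a3 and Crabp2 had none and were not searched.
Aldh1a1, chr19:20601848-20601967, plus strand: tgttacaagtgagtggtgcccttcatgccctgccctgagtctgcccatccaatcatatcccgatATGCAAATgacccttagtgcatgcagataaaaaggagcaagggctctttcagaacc
Aldh1a7, chr19:20727557-20727676, minus strand: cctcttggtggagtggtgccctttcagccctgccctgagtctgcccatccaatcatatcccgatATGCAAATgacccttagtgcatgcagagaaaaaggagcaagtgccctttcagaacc
Aldh1a2, chr9:71215669-71215788, plus strand: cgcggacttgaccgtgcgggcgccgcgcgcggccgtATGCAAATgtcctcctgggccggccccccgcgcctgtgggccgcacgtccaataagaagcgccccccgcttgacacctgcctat

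The octamer, known as a binding sequence of POU-domain factors, began at position -56 in Aldh1a1 and in Aldh1a7 and at -84 in Aldh1a2, where -1 is the last base before the start. On either strand it occurs in 1.74% of all 32851 promoter windows of 250 bases before to 50 after a start. No other window of a member held it, the further Aldh1a1 window included. Aldh1a3 had no window, so whether its promoter holds the octamer was not tested. Aldh1a1 and Aldh1a7 had the same base at 87.5% of these 120 positions, so they do not count as separate occurrences. CCAAT, searched on both strands and found in 37.4% of windows, began at -72 and -2 in Aldh1a1 and at -36 in Aldh1a2, and also occurs in Aldh1a7 and in 2 overlapping windows of Rara. The octamer and the other motifs were picked after the promoters had been seen, and a match is a description of the letters only.

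Crabp1 (chromosome 9, 54612615 to 54620916), which encodes a cytoplasmic carrier of retinoic acid, was at 32.6 FPKM in KO and 34.1 FPKM in WT. It was the most abundant member in both libraries and 13.8% of all genes above the limit had a higher mean FPKM. Its log2 ratio was -0.06 as deposited and -0.48 relative to the median gene. The interval of -0.22 to 0.10, from about 561 fragments in KO and 700 in WT, holds no difference and lies below the median gene. Crabp2 (chromosome 3, 87752615 to 87757294), the carrier known to hand retinoic acid to its receptor, was at 2.45 FPKM in KO and 0.953 FPKM in WT. This is 2.57-fold in FPKM, but the log2 ratio with its pseudocount was 0.82, or 0.40 relative to the median gene. It rested on about 49 fragments in KO and 23 in WT, with an interval of 0.61 to 2.13, and the authors' deposited table calls it neither higher nor lower. Without a pseudocount, 3 members were therefore at least 2-fold higher, with Crabp2 added, and none was lower. Of the 11670 genes above the lowest listed value in both libraries, 9.93% were higher and 0.703% lower by as much. Together the Crabp genes were at 35.1 FPKM in KO and 35.0 FPKM in WT. Crabp1 was 13.3 times as abundant as Crabp2 in KO and 35.7 times in WT.

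**Figure D3:**
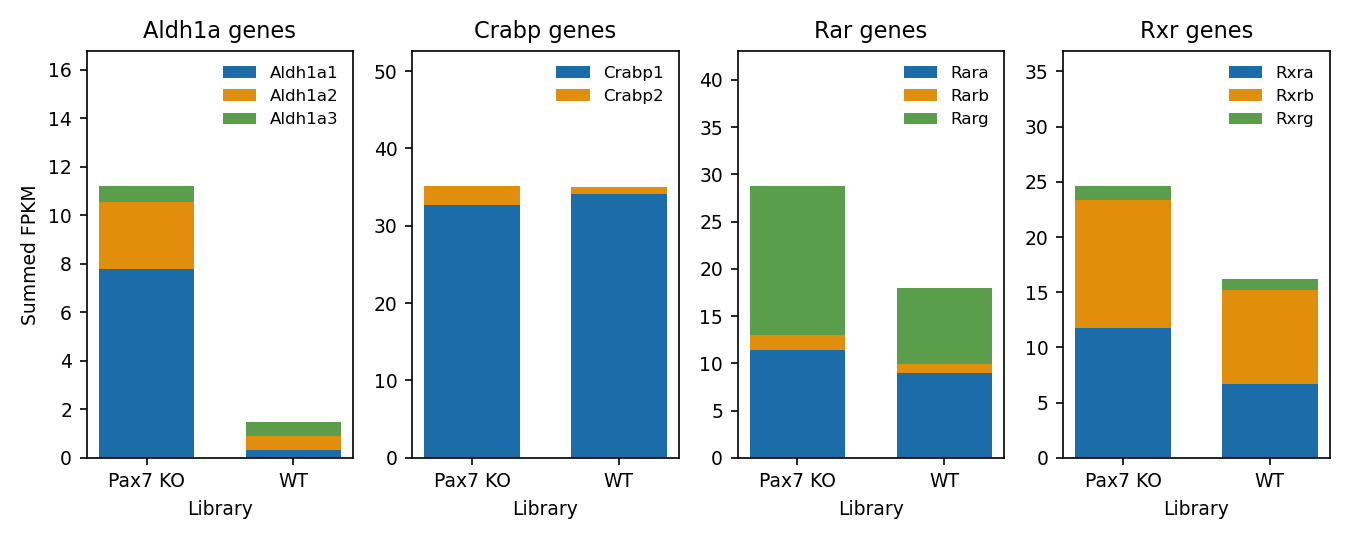
Summed FPKM of the Aldh1a, Crabp, Rar and Rxr genes in the Pax7 KO and WT libraries (1 library each), stacked by gene, each panel with its own axis from 0. The Aldh1a sum is 11.2 FPKM in KO and 1.47 FPKM in WT and is mostly Aldh1a1 in KO, the Crabp sum is level at 35.1 and 35.0 FPKM, and Rarg makes up more of the Rar sum in KO.

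Rara (chromosome 11, 98799010 to 98836256), the gene of RARα, the broadly expressed receptor, was at 11.3 FPKM in KO and 9.03 FPKM in WT. Its log2 ratio was 0.30 as deposited and -0.12 after subtracting the median gene, which makes its direction depend on the scaling. The interval was 0.19 to 0.47, from about 822 and 783 fragments. Rarg (chromosome 15, 102065371 to 102087914), whose receptor RARγ is known from skin, cartilage and mesenchyme, was at 15.7 FPKM in KO and 8.13 FPKM in WT. A log2 ratio of 0.87, or 0.45 against the median gene, follows, with an interval of 0.80 to 1.10 from about 992 fragments in KO and 615 in WT. The order of Rara and Rarg differed between the libraries: Rara had 0.723 times the FPKM of Rarg in KO and 1.11 times in WT. Rarg made up 54.7% of the receptor sum in KO and 45.1% in WT, and Rara 39.6% in KO and 50.1% in WT. The sum over the receptors was 28.7 FPKM in KO and 18.0 FPKM in WT, a log2 ratio without a pseudocount of 0.67, or 0.17 relative to the median gene.

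Rarb (chromosome 14, 17263354 to 17407724), a receptor gene that retinoic acid itself induces, was the lowest of the receptors, at 1.64 FPKM in KO and 0.860 FPKM in WT. The log2 ratio of Rarb was 0.51, and 0.09 relative to the median gene. About 110 fragments in KO and 68 in WT lay behind it, and the lower end of the interval of 0.50 to 1.41 equals the value of the median gene without a pseudocount, to 2 decimals. The Rarb promoter is printed because it holds the classical retinoic acid response element of this gene, a direct repeat of the receptor hexamer with 5 bases between (DR5, in capitals), 120 bases before the RefSeq start on GRCm38.p6, 5′ to 3′.
Rarb, chr14:16575477-16575596, minus strand: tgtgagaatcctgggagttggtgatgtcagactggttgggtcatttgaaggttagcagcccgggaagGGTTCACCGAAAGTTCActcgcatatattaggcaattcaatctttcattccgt

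The DR5 began at -53 and was searched on both strands, with A or G as the first letter of each hexamer and G or T as the third. It occurs in 0.0974% of all promoter windows, and of the 6 members with a window Rarb was the 1 with a match. Rdh10, Aldh1a3 and Crabp2 could not be searched. No window of a member held the repeat with 2 bases between (DR2), which is found in 0.268% of windows. The hexamer AGGTCA by itself, in 16.3% of windows, occurred in Rara and Rarg windows. Response elements further from a start lie outside these windows.

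The RXR genes, whose products are the partners of the receptors on DNA, had log2 ratios of 0.31 (Rxra), 0.00 (Rxrb) and -0.28 (Rxrg) relative to the median gene. Rxra was at 11.7 FPKM in KO and 6.68 FPKM in WT, Rxrb at 11.6 FPKM in KO and 8.46 FPKM in WT, and Rxrg at 1.24 FPKM in KO and 1.03 FPKM in WT. Their sum was 24.6 FPKM in KO and 16.2 FPKM in WT, 1.52-fold higher, close to the 1.59-fold of the receptor sum.

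Genes of the retinoid pathway and of related families were taken from 9 lists of uptake, storage, conversion, clearance, receptor partners, carriers, coregulators and induced genes. The lists go beyond vitamin A handling, since they hold further aldehyde dehydrogenases, fatty acid carriers and other receptors that pair with RXR. Of 118 listed genes besides the members, 79 had a mean FPKM of 1 or more. Of these, 12 were at least 2-fold higher in KO (15.2%, against 5.06% of all genes), 67 were within 2-fold and none was lower (against 0.689%). Among the 12 were Aldh2, Aldh1l1, Aldh3a1, Fabp4, Pparg and Nr1h3, so the share is not one of vitamin A genes alone. Adh1 and Aldh1l1 were below 1 FPKM in WT and passed through their KO value. This count and the counts per list below are therefore no support for a difference. The median over the 79 genes was 0.46, which is 0.04 above the median gene, and 43 lay above the median gene and 36 below it. After subtracting the median gene, 4 remained past 2-fold in the higher direction, where 1.35% of all genes above the limit were, and none in the lower, where 1.45% were.

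**Figure D4:**
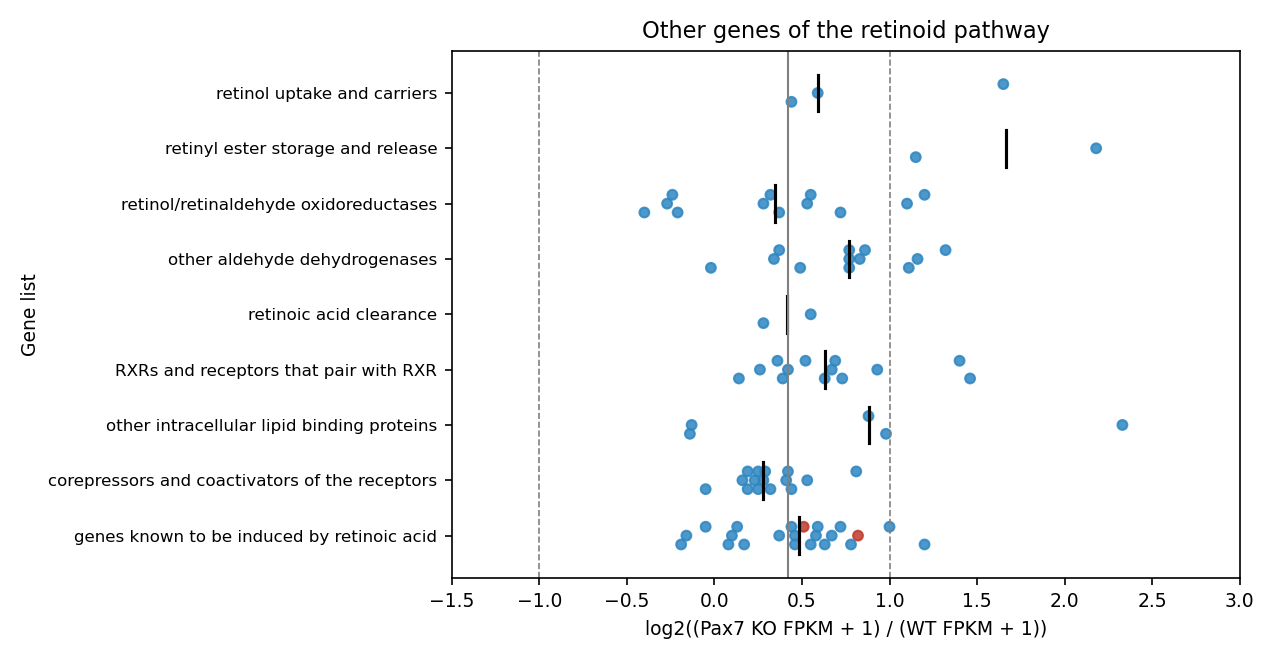
Log2 ratio of Pax7 KO over WT for genes of mean FPKM 1 or more in 9 lists of the retinoid pathway and related families. Points are genes, with Rarb and Crabp2 in red within the induced genes. Each list's median is a short black line, the median gene (0.42) is a grey line and 2-fold is marked by dashed lines. Lipe, Rbp4 and Fabp4 lie farthest to the right, and no gene lies beyond the lower dashed line.

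Above the limit, 1 of 3 uptake genes, Rbp4, and 2 of 2 storage genes, Lipe and Dgat1, were at least 2-fold higher, and none was lower. Of all genes above the limit, 5.06% were higher and 0.689% lower by as much. Relative to the median gene, Dgat1 fell short of 2-fold, with a log2 ratio of 0.73. Rbp4, which encodes the secreted carrier of retinol and is made by liver and fat, was at 9.80 FPKM in KO and 2.45 FPKM in WT. Lipe, hormone-sensitive lipase, which splits triglyceride and retinyl esters in fat cells, was at 55.2 FPKM in KO and 11.4 FPKM in WT; 4 other rows overlap its locus, and their summed values were 10.0 FPKM in KO and 9.0 FPKM in WT. Dgat1, an acyltransferase that makes triglyceride and can make retinyl esters, was at 13.4 FPKM in KO and 5.48 FPKM in WT. Below the limit, the retinol-binding protein gene Rbp7, chosen after its value was seen, was at 1.47 FPKM in KO and 0.144 FPKM in WT, a log2 ratio of 1.11. The other uptake genes below the limit, Rbp2, Lrp2, Ttr and Rbpr2 (listed as 1300002K09Rik), went the other way. Their log2 ratios ran from -0.03 (Rbp2) to -0.20 (Rbpr2), at levels below 1 FPKM in both libraries. Stra6, the gene of a retinol uptake receptor, chosen after its value was seen, was within 2-fold, at 1.70 FPKM in KO and 0.987 FPKM in WT.

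Dhrs3 and Adh1 were the oxidoreductase genes past 2-fold, both higher in KO, of 12 further such genes with a mean FPKM of 1 or more. Of all genes, 5.06% were higher by as much. Dhrs3, which encodes an enzyme that turns retinaldehyde back into retinol and is known to be induced by retinoic acid, was at 20.6 FPKM in KO and 8.45 FPKM in WT. Its log2 ratio of 1.20 left 0.77 after subtracting the median gene. Adh1, an alcohol dehydrogenase able to oxidise retinol, was at 2.81 FPKM in KO and 0.773 FPKM in WT. The median of the 12 genes was 0.34, or -0.08 relative to the median gene.

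Past 2-fold in the higher direction were 3 of 12 other aldehyde dehydrogenase genes, and none was lower. Over all genes above the limit, 5.06% were higher and 0.689% lower by as much. The median log2 ratio of the 12 genes was 0.77, or 0.35 relative to the median gene. Aldh2, the mitochondrial enzyme of acetaldehyde, was at 61.2 FPKM in KO and 26.8 FPKM in WT. Aldh1l1, a folate enzyme, was at 2.62 FPKM in KO and 0.448 FPKM in WT, and Aldh3a1 at 4.33 FPKM in KO and 1.47 FPKM in WT. Relative to the median gene none of the 3 reached 2-fold.

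The clearance genes had 2 members above the limit, and both were within 2-fold. Cyp26b1, which encodes a retinoic acid hydroxylase, was at 6.35 FPKM in KO and 4.03 FPKM in WT, with a log2 ratio of 0.55, or 0.13 relative to the median gene. It stood at 2.30 times the FPKM of Aldh1a2 in KO and 7.15 times in WT. Cyp1b1, a cytochrome P450 that can also act on retinoids, was at 2.28 FPKM in KO and 1.71 FPKM in WT. Cyp26a1, the hydroxylase gene that retinoic acid induces most typically, chosen after its value was seen, was at 0.158 FPKM in KO and 0.154 FPKM in WT, below the limit in both.

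Of 22 genes above the limit that are known to be induced by retinoic acid in some tissue, 2 were at least 2-fold higher, none was lower and 20 were within 2-fold. The shares over all genes were 5.06% higher and 0.689% lower. The list holds Rarb and Crabp2 themselves, and its median log2 ratio of 0.48 was 0.06 relative to the median gene. The higher genes were Dhrs3, given above, and Rarres2, which encodes chemerin, a secreted protein also made by fat cells, at 47.3 FPKM in KO and 23.1 FPKM in WT; its locus overlaps that of Lrrc61, at 5.24 FPKM in KO and 2.51 FPKM in WT. Of 15 coregulator genes none differed by 2-fold, with a median of 0.28, or -0.14 relative to the median gene. Gps2, which encodes a subunit of a corepressor complex, was at 53.7 FPKM in KO and 43.6 FPKM in WT.

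Among 13 genes above the limit for the RXRs and the receptors that pair with them, Pparg and Nr1h3 were at least 2-fold higher, as were 5.06% of all genes. Pparg, the nuclear receptor of fat cell differentiation, was at 15.9 FPKM in KO and 5.15 FPKM in WT, and Nr1h3, the liver X receptor α, at 6.03 FPKM in KO and 1.67 FPKM in WT. Of 5 other lipid-binding protein genes above the limit, Fabp4, the fatty acid carrier of fat cells, was at least 2-fold higher, at 899 FPKM in KO and 179 FPKM in WT. Fabp5, which encodes a carrier that can also bind retinoic acid and was chosen after its value was seen, was at 134 FPKM in KO and 72.2 FPKM in WT, with a log2 ratio of 0.88, or 0.46 relative to the median gene.

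Markers of several cell types moved beside these genes. The marker counts here and in the next paragraph stand against 5.06% of all genes higher and 0.689% lower by 2-fold or more. The list sums stand against a median gene that was 1.42-fold higher in KO. Satellite cell and myoblast markers were lower by 2-fold or more in 5 of 10 cases and higher in none, and they summed to 144 FPKM in KO and 273 FPKM in WT. Of 9 adipocyte markers above the limit, 9 were at least 2-fold higher, and the list of 10 summed to 1250 FPKM in KO and 255 FPKM in WT, 4.91-fold. Most of the adipocyte sums was Fabp4, at 899 FPKM in KO and 179 FPKM in WT. The adipocyte list shares Fabp4 and Pparg with the lists above. For keratinocytes, 3 of 7 markers above the limit were at least 2-fold higher, and the list of 10 summed to 76.6 FPKM in KO and 13.3 FPKM in WT, 5.75-fold. Its genes of highest mean FPKM, Krt14 and Krt5, which were below 1 FPKM in WT, were at 19.9 and 18.9 FPKM in KO and at 0.496 and 0.212 FPKM in WT. Krt17 was also past 2-fold, at 14.7 FPKM in KO and 1.47 FPKM in WT. It and the rest of the list were named after their values were seen. With log2 ratios below 1, Lgals7, Dsp and Perp were higher in KO by 3.08-fold, 2.93-fold and 2.57-fold in FPKM. Epcam was 1.49-fold higher, and Sfn was at 12.6 FPKM in KO and 5.86 FPKM in WT. Trp63 was at 0.386 FPKM in KO and 0.254 FPKM in WT. Krt15, at 0.0545 FPKM in KO and 0.205 FPKM in WT, was the only gene of the list with a lower FPKM in KO. Dsp, Trp63 and Krt15 were below the limit.

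Of the chondrocyte and tendon markers, 2 of 5 above the limit were at least 2-fold higher, with list sums of 204 FPKM in KO and 67.4 FPKM in WT. Most of these sums was Col2a1, a cartilage collagen, at 170 FPKM in KO and 42.0 FPKM in WT. The tendon factor Scx, named after its value was seen, went the other way, at 3.34 FPKM in KO and 6.91 FPKM in WT, and had a log2 ratio of -1.29 after subtracting the median gene; its locus overlaps 2 other rows, which makes its value uncertain. Endothelial markers summed to 789 FPKM in KO and 410 FPKM in WT, and 3 of 10 were past 2-fold, higher in KO. Fibroblast markers summed to 311 FPKM in KO and 208 FPKM in WT, and 1 of 9 above the limit was past 2-fold, higher in KO. Smooth muscle and pericyte markers summed to 996 FPKM in KO and 893 FPKM in WT. Most of these sums was Acta2, at 642 FPKM in KO and 626 FPKM in WT. In that list 2 of 10 were past 2-fold, higher in KO. They were Kcnj8, at 21.1 FPKM in KO and 4.53 FPKM in WT, and Rgs5, at 16.5 FPKM in KO and 6.61 FPKM in WT. Schwann cell markers summed to 144 FPKM in KO and 93.4 FPKM in WT, and leukocyte markers to 27.0 FPKM in KO and 19.2 FPKM in WT. None above the limit in these last lists was past 2-fold. The sums were higher in KO by 1.92-fold (endothelial), 1.54-fold (Schwann cell), 1.5-fold (fibroblast), 1.41-fold (leukocyte) and 1.12-fold (smooth muscle and pericyte). Relative to the median gene, 1 endothelial and 1 smooth muscle or pericyte marker stayed past 2-fold, and no fibroblast marker did. Over all genes, 1.35% were higher by as much. No marker of any list was at the lowest listed value in either library. No sorting is named in the labels' protocols, and the part of these cell types in the differences of Aldh1a1, Aldh1a2 and the other members was not tested. In bulk RNA, more cells of a type and more RNA of a gene per cell cannot be told apart.

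**Figure D5:**
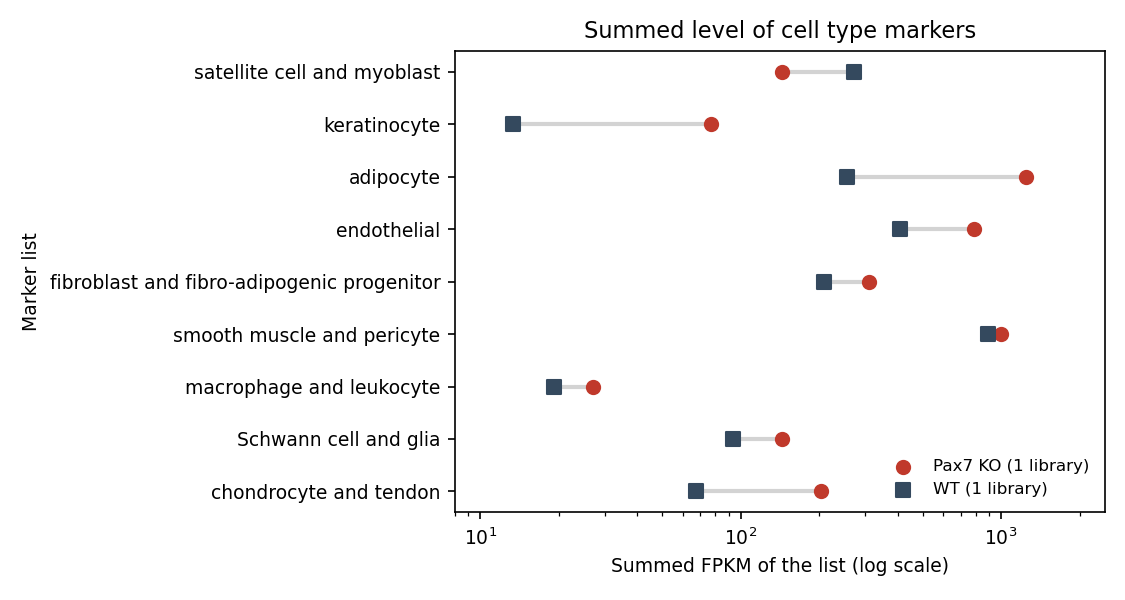
Summed FPKM (log axis) of 9 lists of cell type markers in the Pax7 KO library (circles) and the WT library (squares), 1 library each. The adipocyte list stands at 1250 FPKM in KO and 255 FPKM in WT and the keratinocyte list at 76.6 and 13.3 FPKM, while the satellite cell and myoblast list is lower in KO, at 144 FPKM against 273 FPKM. Most of the adipocyte sum is Fabp4, and most of the smooth muscle and pericyte sum is Acta2.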

How the data were processed

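PolyA RNA of cultured muscle progenitors was sequenced in 1 Pax7 KO and 1 WT library. The authors deposited FPKM values with a lowest value of 0.001, and lists of 713 higher and 382 lower genes each with KO FPKM divided by WT FPKM as its fold, per the file headers; no source used here states how genes entered these lists. Build mm9 and the tools Cuffdiff 2.1.1, Cufflinks 2.1.1 and TopHat2 2.0.9 come from the submitters' processing notes, which give no roles. Rows of 1 repeated symbol were summed, log2 ratios used a pseudocount of 1, and counts used genes of mean FPKM 1 or more. Starts in the table count from 0 (7162 of 20650 loci had the RefSeq gene length as end minus start, and 455 were 1 short), so 1 was added.

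Depth came from the step between low FPKM values of genes with 1 RefSeq-matched GENCODE M21 transcript over 1500 nt; the mean cosine was 0.51 in both libraries, where exact multiples give 1. Fragments per gene used the longest such transcript and are approximate. Coding sequences were aligned globally with Biopython 1.88 (match 1, mismatch -1, gap opening -4, extension -0.5); promoters are from RefSeq. Computation used scipy 1.17.1, matplotlib 3.10.9, pandas 2.3.3 and numpy 2.4.6 under Python 3.11.15.

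The members, lists and limits were chosen with earlier results of these data known. All members were named; in each pathway list, every gene at or past 2-fold was named, or else the 2 with the highest mean FPKM (a few genes of the lists are not reported here), and values are given for the 2 keratinocyte markers of highest mean FPKM. Rbp7, Rbp2, Rbpr2, Ttr, Lrp2, Stra6, Fabp5, Cyp26a1, Scx, Kcnj8 and Rgs5 were chosen after their values were seen. So were the keratinocyte markers Krt17, Lgals7, Dsp, Perp, Epcam, Sfn, Trp63 and Krt15.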

Additional observations from a re-analysis of the deposited data

How the results depend on the processing

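Aldh1a1 kept its direction under the pseudocounts, scalings and paralog sum tried here, with log2 ratios between 2.29 (centred on the median gene) and 4.52 (no pseudocount); it was 4.16 with a pseudocount of 0.1 and 4.01 without one after centring, an alternative chosen after seeing the data. The count of members at least 2-fold higher was 2 as reported and in the authors' deposited list. It was 1 after centring (159 of all 11751 genes) or upper-quartile scaling (160), and 2 without a pseudocount after centring (270). With pseudocounts of 0.1, 0.5 or none it was 3, where 1104, 820 and 1159 of all genes were higher, the last of 11670 genes. A mean FPKM of 5 or more, which leaves out Aldh1a1 and Aldh1a2 and keeps only Crabp1, Rara and Rarg, gave 0. It also keeps fewer of all genes, of which 408 were higher. At a 1.5-fold limit it was 4, where 3521 of all genes were higher. No member and no pathway gene was lower by 2-fold under any alternative. The count without a filter kept the pseudocount of 1, which makes ratios of low genes smaller. With no pseudocount, genes below the limit were not counted.

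Higher pathway genes numbered 12 as reported, 4 after centring, 6 with upper-quartile scaling, 19 without a pseudocount and 31 at 1.5-fold. Their median of 0.46 became 0.04 after centring, 0.06 with upper-quartile scaling, 0.30 without a filter, 0.57 with a pseudocount of 0.1 or none, and 0.07 with none after centring.

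The counts of pathway genes are to be read beside those of all genes. Over all 11751 genes of mean FPKM 1 or more, 595 were higher and 81 lower. The higher count became 159 after centring, 160 with upper-quartile scaling, 1104 with a pseudocount of 0.1, 1159 with none, 270 with none after centring and 3521 at 1.5-fold. The lower count became 170, 162, 303 (none, centred), 168 (1.5-fold) and 32 (mean FPKM of 5 or more). Counts with no pseudocount left out genes at the lowest listed value in either library, with 11670 genes before centring. A mean FPKM of 5 or more left fewer than 11751 genes. Among the other members, Rara turned to -0.12 after centring and -0.16 with upper-quartile scaling, and Aldh1a3 to -0.37 and -0.14. No member overlaps another row, so sums over shared loci gave no value. No paired analysis was possible because each genotype has 1 library. At this depth the WT values rest on few fragments for Aldh1a1 (18), Crabp2 (23), Aldh1a2 (33), Aldh1a3 (50) and Rarb (68), and variation between cultures is unknown.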
